A study of Schizosaccharomyces pombe with 8 samples.

Results

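The 9 genes described here encode enzymes of glycolysis and alcoholic fermentation in the fission yeast Schizosaccharomyces pombe. They are fba1, tpi1, tdh1, pgk1, gpm1, eno101, pyk1, pdc101 and adh1, which were set as a list of systematic identifiers with earlier results of these data known. All 9 were found among the 7014 genes of the immunoprecipitation table, and 1 of them, gpm1, is among the 40 RNAs for which RNA-Seq counts were analyzed. RIP-Seq, the sequencing of RNA recovered with a protein by immunoprecipitation (IP), compared 1 library from a precipitation of Lsm8 with 1 library from a control IP. The Lsm8 column carries the name PP585, which the study's strain list gives as a strain with lsm8::lsm8-myc13-natMX6, so that Lsm8 is tagged with myc at its own locus. Which strain served for the control IP is not given in the sources used here. RNA-Seq compared 3 libraries of pof8+ cells (PP138) with 3 libraries of pof8Δ cells (PP1723, pof8::kanMX6), both grown in rich medium. All of these named strains are of mating type h- and share the alleles ade6-M216 and leu1-32, and also ura4-D18 and his3-D1. The labels do not say whether the libraries of a strain came from separate cultures, so p-values measure the spread between these samples, which may be technical.

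Glycolysis converts glucose to pyruvate in the cytosol and conserves part of the energy as ATP and NADH. In yeasts that ferment, pyruvate is then decarboxylated to acetaldehyde, and the reduction of acetaldehyde to ethanol regenerates NAD+ so that glycolysis can go on. The messages of these enzymes are among the most abundant in yeast cells growing on glucose. Lsm8 is the subunit that sets the nuclear Lsm2-8 ring, which binds U6 snRNA, apart from the cytoplasmic Lsm1-7 ring, which acts in mRNA decay. Pof8 is a La-related protein that acts in the biogenesis of telomerase RNA. The question for such abundant messages is how reads from the precipitate of Lsm8 relate to those of a control precipitation.

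The Lsm8 IP table held 6604836 reads and the control IP at least 942080, which leaves out 98 genes with control reads only, whose control counts were not assigned. U4 and U6 snRNAs took 70.0% of the Lsm8 IP reads and 1.83% of the control IP reads. U6, an RNA that the Lsm2-8 ring binds, had a ratio of 30.4 (95% interval 29.9 to 30.9), the direction that the Lsm8 label gives. With 1 library on each side no test was possible. The comparison is between those 2 libraries, and all intervals are exact binomial intervals at 95% that cover counting error only. Reads were counted without regard to strand. The RNA-Seq libraries held 49448968 to 72951191 reads, and pof8 itself has no counts among the RNAs analyzed here, so the deletion was not checked on its own gene.

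The 9 messages held a similar share of protein-coding reads in both IPs. They took 160263 of 1414763 coding reads in the Lsm8 IP, or 11.3% (11.28 to 11.38), and 80104 of 770640 in the control IP, or 10.4% (10.33 to 10.46). The difference between these shares is larger than counting error, but no replicate library shows how far shares vary from one precipitation to the next. Some overlapping genes carry equal counts, such as sec3 and mst2 with 235 Lsm8 reads and 136 control reads each. A read may thus count for more than 1 gene, which these shares and their intervals do not allow for. The higher Lsm8 share rested on gpm1, which alone took 2.09% (Lsm8 IP) and 0.781% (control IP). The other 8 members held 130703 of these coding reads (Lsm8 IP) and 74083 (control IP). Their share was thus lower for Lsm8. Among coding genes that overlap no other gene by their ASM294v3 positions, the same 8 held 21.8% (Lsm8 IP) and 20.6% (control IP). The direction for these 8 therefore depended on the denominator. Of the reads of all genes, snRNAs included, the 9 genes held 2.43% (Lsm8 IP) and 8.50% (control IP). The 7 coding genes with the most control reads were all members, and 8 of the 9 members were among the 10 coding genes with the most Lsm8 reads. None of the 9 has an intron in the ASM294v3 annotation, whereas 49.5% of coding genes with at least 10 control reads have one.

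A normalized read count is the number of reads of a gene divided by the median read count of its library, 96 reads for the Lsm8 IP and 37 for the control IP. The ratio is the normalized count in the Lsm8 IP over that in the control IP. The enrichment rule asks for a ratio over 2 together with at least 10 normalized counts more in the Lsm8 IP.

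The enzymes that split and interconvert the sugar phosphates come first in the pathway order. Fructose-bisphosphate aldolase, which cleaves fructose 1,6-bisphosphate, is encoded by fba1 (SPBC19C2.07, chromosome II, 1279 nt of exon annotated in ASM294v3). It had 15623 Lsm8 reads and 9286 control reads, and normalized counts of 162.7 and 251.0. Its ratio was 0.648 (0.632 to 0.665), so fba1 was lower in the Lsm8 IP. Triose-phosphate isomerase, which interconverts both products of aldolase, is encoded by tpi1 (SPCC24B10.21, chromosome III, 957 nt). It had 12872 and 4271 reads, and normalized counts of 134.1 and 115.4. Its ratio of 1.16 (1.12 to 1.20) placed tpi1 above 1 and second among the 9 genes.

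Glyceraldehyde-3-phosphate dehydrogenase, which forms NADH, is encoded by tdh1 (SPBC32F12.11, chromosome II, 1457 nt). It had the most Lsm8 reads of all coding genes, 39023, against 17759 control reads, and normalized counts of 406.5 and 480.0. Its ratio was 0.847 (0.832 to 0.862), the median of the 9. Reads of tdh1 are partly shared in sequence with its paralogue gpd3: of 1418 stretches of 40 nt, the read length of the IP libraries, 276 occur elsewhere in ASM294v3, and 80.5% are unique. The other 8 members are unique at every position of this length. Because only uniquely mapped reads were counted, the level of tdh1 is uncertain in both libraries.

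Phosphoglycerate kinase, the first ATP-forming step, is encoded by pgk1 (SPBC14F5.04c, chromosome II, 1641 nt). It had 13691 and 9575 reads, and normalized counts of 142.6 and 258.8. The ratio of pgk1 was 0.551 (0.537 to 0.566). Phosphoglycerate mutase, which moves the phosphate group before enolase acts, is encoded by gpm1 (SPAC26F1.06, chromosome I, 791 nt). It had 29560 and 6021 reads, and normalized counts of 307.9 and 162.7. Its ratio of 1.89 (1.84 to 1.95) was the highest of the 9, 1.63 times that of tpi1, and the interval of gpm1 lies below the threshold of 2. Of coding genes with 10 or more control reads, 89.1% lay lower than gpm1. Enolase, which forms phosphoenolpyruvate, is encoded by eno101 (SPBC1815.01, chromosome II, 1457 nt). It had the most control reads of all coding genes, 18049, and 23120 Lsm8 reads, with normalized counts of 487.8 and 240.8. Its ratio was 0.494 (0.484 to 0.503). The successive enzymes gpm1 and eno101 thus lay at opposite ends of the list, gpm1 first and eno101 in eighth place.

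Pyruvate kinase, which closes glycolysis with the second ATP-forming step, is encoded by pyk1 (SPAC4H3.10c, chromosome I, 1933 nt). It had 12147 and 5141 reads, and normalized counts of 126.5 and 138.9. The ratio of pyk1 was 0.911 (0.881 to 0.941). The fermentation branch begins with pyruvate decarboxylase, encoded by pdc101 (SPAC1F8.07c, chromosome I, 1883 nt). It had 5717 and 6832 reads, and normalized counts of 59.6 and 184.6. Its ratio of 0.323 (0.311 to 0.334) was the lowest of the 9, and 5.75% of coding genes (those with 10 or more control reads) lay lower. Alcohol dehydrogenase, which reduces acetaldehyde to ethanol, is encoded by adh1 (SPCC13B11.01, chromosome III, 1598 nt). It had 8510 and 3170 reads, and normalized counts of 88.6 and 85.7. The interval of adh1, 0.993 to 1.08 around a ratio of 1.03, includes 1, and adh1 is the one member for which counting error alone covers equal levels.

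The ratio fell from gpm1 through tpi1, adh1, pyk1, tdh1, fba1, pgk1 and eno101 to pdc101. The intervals of 0 of the 8 neighbouring pairs in this order overlapped, so each step exceeded counting error, with no measure of the variation between precipitations. The ratio of gpm1 was 5.87 times that of pdc101. The intervals of 2 members, gpm1 and tpi1, lay above 1 and those of 6 lay below. This order does not follow the order of the pathway. Spearman's rho between exon length and ratio was -0.53 across the 9 members, all from the same 2 libraries, and -0.037 over the 4625 coding genes with at least 10 control reads. The shortest member, gpm1, had the highest ratio, 1.89, and the longest, pyk1, had 0.911, above the member median. The genes tdh1 and eno101 are of equal length. Whether length bears on the ratio was not tested.

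**Figure D1:**
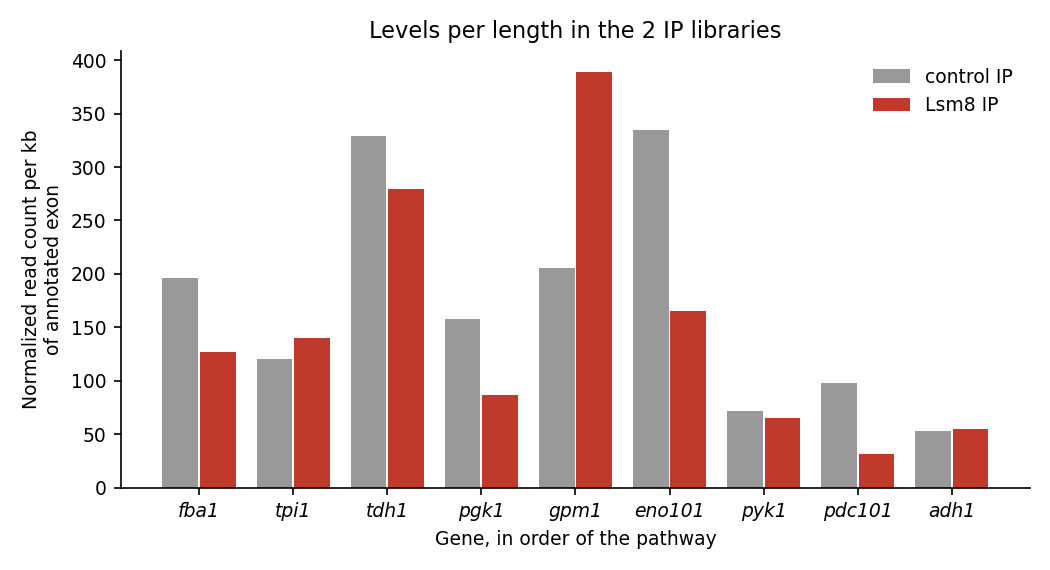
Normalized read count per kb of annotated exon in the control IP (grey bars) and the Lsm8 IP (red bars), 1 library each, for the 9 genes in pathway order. The gpm1 bar of the Lsm8 IP is the tallest of that library at 389, and those of tdh1 and eno101 are the tallest of the control IP at 329 and 335. Part of the tdh1 sequence is not unique, so its bars are uncertain.

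Per kb of exon, the level of a gene can be set against that of another. In the control IP, eno101 (335 normalized counts per kb) and tdh1 (329) stood highest, followed by gpm1 (206), fba1 (196), pgk1 (158), tpi1 (121), pdc101 (98.1), pyk1 (71.9) and adh1 (53.6). The whole exon length was used, although only 80.5% of the 40-nt stretches of tdh1 are unique. The order of tdh1 and eno101 is therefore uncertain. In the Lsm8 IP, gpm1 stood highest at 389 normalized counts per kb, above tdh1 (279), eno101 (165), tpi1 (140) and fba1 (127). The lowest levels per kb there were those of pgk1 (86.9), pyk1 (65.5), adh1 (55.5) and pdc101 (31.6). Thus gpm1 stood behind eno101 and tdh1 in the control IP and first in the Lsm8 IP, and pdc101 stood last in the Lsm8 IP. Of the reads of the 9 genes together, gpm1 took 7.52% in the control IP and 18.4% in the Lsm8 IP. Of all coding reads it took 0.781% (0.762 to 0.801) and 2.09% (2.066 to 2.113).

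With the enrichment rule, 0 of the 9 members passed, where 35 of the 6578 genes with a read in either library did (0.532%). At a ratio above 1.5 with the same difference, 1 member passed, gpm1, beside 44 of 6578 genes (0.669%). The difference for gpm1 was 145 normalized counts, and for tpi1, the next in order, it was 18.7. For 3 of the 9 members, gpm1, tpi1 and adh1, the ratio was above 1, beside 1773 of 4625 coding genes with at least 10 control reads (38.3%), a share close to that of the members. The median ratio of the 9 members was 0.847, next to 0.844 for these coding genes, whose quartiles were 0.571 and 1.28. The middle of the group therefore lay at the middle of all coding genes.

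**Figure D2:**
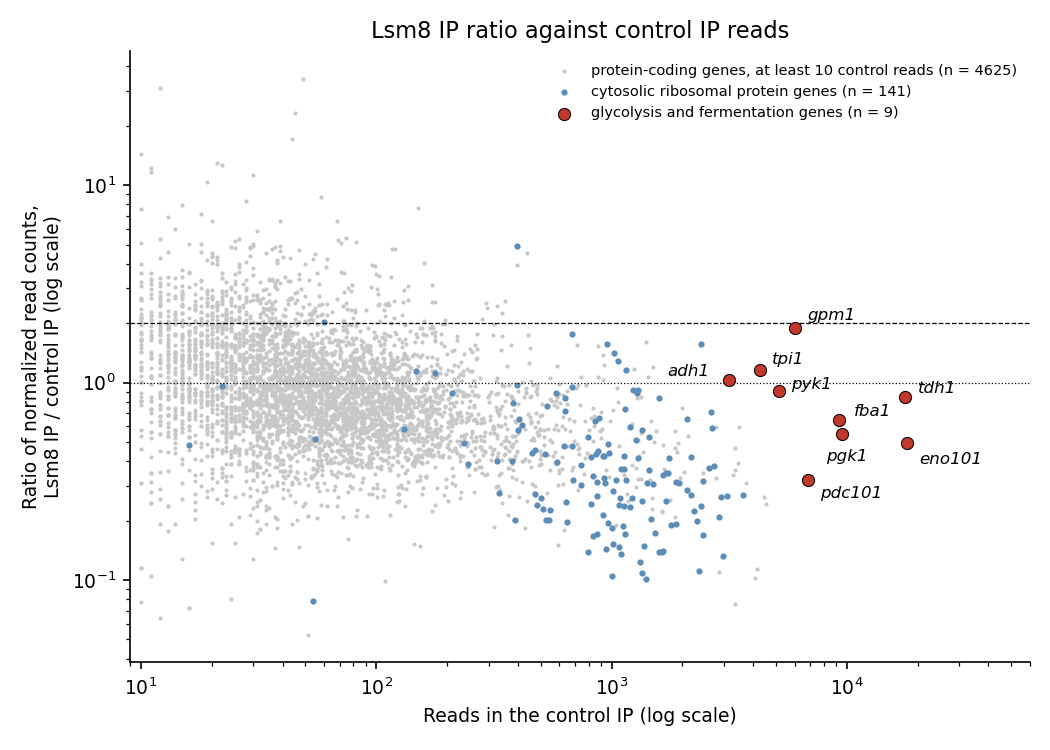
Ratio of normalized read counts (Lsm8 IP over control IP, log scale) against reads in the control IP (log scale) for 4625 protein-coding genes (grey), 141 ribosomal protein genes (blue) and the 9 glycolysis and fermentation genes (red), 1 point a gene. The dotted line marks a ratio of 1 and the dashed line the threshold of 2; the 9 genes lie at the right edge, from 0.323 (pdc101) to 1.89 (gpm1).

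Among non-member coding genes the median ratio fell with the class of control reads, from 1.18 at 10 to under 30 reads through 0.728 at 100 to under 300 to 0.341 at 1000 to under 3000 and 0.290 in the 14 genes with 3000 or more. The control reads are the denominator of the ratio, and rho between them and the ratio was -0.36 over the 4625 genes. At least as many control reads as adh1 were held by 21 coding genes, 9 of which are the members. The other 12 ranged from 0.0755 (chc1) to 0.599 (cpc2, the yeast RACK1 protein of the ribosome) with a median of 0.290. These 12 held 3289 to 4551 control reads, whereas 7 of the 9 members held more than any of them, so most members have no gene of like depth beside them. SPCC13B11.02c, with 3167 control reads and a ratio of 1.03, lay just under the limit, but its reads cannot be told apart from those of adh1. All 9 members lay above the median of the 12 and 6 above cpc2, while 5 of the 12 lay above pdc101. The median of the members was 2.92 times that of the 12. Of those 12, 8 overlap another gene of the table, and the 4 that do not had a median of 0.253, with actin (act1, 0.362) the highest. Counts of spc24 (1226 Lsm8 and 4170 control reads) and tif512 (1081 and 4082) nearly match. The 12 may therefore not all be separate genes for comparison, and their range and median carry this limit. These values are a description without a test.

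Matched on Lsm8 reads instead, 3 non-member coding genes held at least as many as pdc101. They were SPCC13B11.02c (ratio 1.03), rpl402 (1.58) and obr1 (1.60). The reads of SPCC13B11.02c cannot be told apart from those of adh1, so it is no separate gene for comparison. Without it 2 genes remained, rpl402 and obr1, and gpm1 alone among the members lay above them. Such a choice takes genes that are high in the numerator of the ratio. No coding gene with 1000 control reads or more lay above gpm1, although 502 coding genes with fewer control reads, and at least 10, did.

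Ribosomal protein genes, another group of very abundant messages, had a median ratio of 0.336 (141 genes, from 0.0785 for rpl1201 to 4.93 for rps1401). The median of the 9 members was 2.52 times as high. Of the 141 genes, 18 lay above the member median and 2 above gpm1. Core histone genes (9 genes) had a median of 1.03, from 0.298 (hht1) to 2.25 (hht2). The median exon length of the ribosomal protein genes was 620 nt, shorter than every member, and a role of length was not tested. By intron, the median of non-member coding genes was 0.755 without one (2327 genes) and 0.925 with one (2289 genes), and the member median of 0.847 lay between them.

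SPCC13B11.02c, beside adh1, had 8492 Lsm8 reads and 3167 control reads, 99.8% and 99.9% of the reads of adh1. In ASM294v3 these 2 genes do not overlap, but the reads were aligned to ASM294v2, where gene limits can differ. The study states that unambiguous reads were counted. Equal counts occur elsewhere, as for the overlapping genes sec3 and mst2 (235 Lsm8 reads and 136 control reads each). Whether reads were counted for both genes of such a pair was not tested. Reads of adh1 and SPCC13B11.02c cannot be told apart here, so the values of adh1 are uncertain. Reads counted without strand can come from either of 2 overlapping genes. The gpm1 locus overlaps mug106, which had 26 Lsm8 reads and 8 control reads. Apart from SPCC13B11.02c, no gene next to a member reached more than 5.49% of the Lsm8 reads of that member (SPNCRNA.1208, beside adh1). By the distance between log2 normalized counts in both IP libraries, the 5 coding genes most like gpm1 were fba1 (distance 1.11), pgk1 (1.30), tpi1 (1.30), pyk1 (1.30) and tdh1 (1.61), all of them members. This distance takes in the read level of a gene, and the 7 coding genes with the most control reads are all members. It shows no likeness in ratio: these 5 ran from 0.551 (pgk1) to 1.16 (tpi1), and gpm1 stood at 1.89.

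Of coding genes with at least 10 control reads, 38.3% lay above a ratio of 1 and 18.2% below 0.494, the ratio of eno101. Of the 6 genes for the upper steps and paralogues, 1 was above 1 and 2 were below 0.5, with a median of 0.581. The lowest was pfk1, phosphofructokinase, at 0.348 (0.329 to 0.369), and gpd3, the paralogue of tdh1, lay at 0.372 (0.334 to 0.414). The ratio of tdh1 was 2.28 times that of gpd3, and part of their sequence is shared. The enolase paralogue eno102 had 41 Lsm8 reads and 13 control reads and a ratio of 1.22 (0.639 to 2.47); this interval includes 1. The hexokinase genes hxk1 and hxk2 lay at 0.597 and 0.566, and phosphoglucose isomerase, pgi1, at 0.635 (0.587 to 0.688). The median of non-member coding genes was 0.546 in the class of hxk1, gpd3 and pgi1, 300 to under 1000 control reads, and 0.341 in that of hxk2 and pfk1, 1000 to under 3000.

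Of the 8 ght genes, which encode hexose transporters, 6 had 10 or more control reads, with a median ratio of 1.37, from 1.04 (ght2) to 2.35 (ght1). All 6 ratios were above 1, beside 38.3% of coding genes, but the intervals of 3 of them included 1, and all 6 were below 1 when scaled to total reads. These genes held few reads: ght1 had 61 Lsm8 reads and 10 control reads, and its interval ran from 1.20 to 5.15. Coding genes with 10 to under 30 control reads had a median ratio of 1.18, and those with 30 to under 100 had 0.869. On the fermentation side, 4 other pyruvate decarboxylase and alcohol dehydrogenase genes had at least 10 control reads, with a median of 0.312. The alcohol dehydrogenase gene adh4 lay at 0.183 (0.154 to 0.217), adh8 at 0.440 (0.201 to 0.974) and pdc202 at 0.128 with 5 Lsm8 reads. The exception was pdc201 at 2.067 (1.08 to 4.36), with 59 Lsm8 reads and 11 control reads. None of the genes of these 3 lists passed the enrichment rule (0.532% of all genes did), but the rule takes at least 960 Lsm8 reads even with no control read, which hxk2, pgi1 and pfk1 alone among them reached.

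Another scaling multiplies all ratios by the same factor, so the order of the genes is fixed and their side of 1 is not. Scaled to total reads, where U4 and U6 weigh on the Lsm8 IP, every ratio was 0.370 times as large, and gpm1, tpi1 and adh1 then lay below 1 at 0.700, 0.430 and 0.383. Scaled to total reads without the 5 spliceosomal snRNA genes, every ratio was 1.23 times as large. The ratio of gpm1 was then 2.33, past the enrichment rule, and tdh1 (1.04) and pyk1 (1.12) lay above 1. Whether a member lay above or below 1 is therefore a statement about the scaling for gpm1, tpi1, adh1, pyk1 and tdh1, while fba1, pgk1, eno101 and pdc101 lay below 1 under all 5 scalings.

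**Figure D3:**
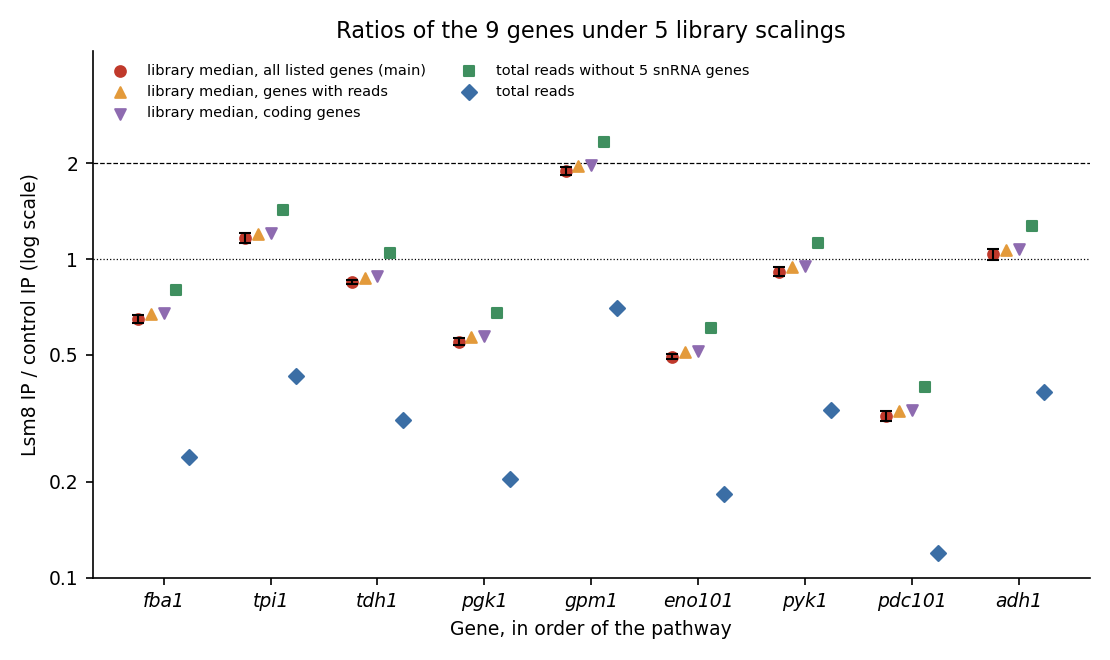
Ratio of the 9 genes (Lsm8 IP over control IP, log scale) in pathway order under 5 library scalings, 1 symbol for each scaling. Error bars on the main value are 95% intervals for counting error, the dotted line is a ratio of 1 and the dashed line a ratio of 2; gpm1 lies above 2 only when total reads without the snRNA genes are used, at 2.33.

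The study used RNA-Seq to ask which RNAs change in level when pof8 is deleted. The counts analyzed here cover only RNAs listed for the Lsm8 IP. The 40 RNAs with counts all were above 1.5 in ratio and 10 or more in difference in the IP libraries, and gpm1 was the one member among them. The gpm1 counts were 394515, 540241 and 393543 in pof8+ libraries 1 to 3 and 500142, 442498 and 524105 in pof8Δ libraries 1 to 3. As CPM, counts scaled to library totals, these were 7864, 8989 and 7959 in pof8+ and 7848, 7060 and 7184 in pof8Δ. All 3 pof8Δ values lay below all 3 pof8+ values, but the highest pof8Δ value, 7848, lay close to the lowest pof8+ value, 7864. The groups overlapped when TMM factors or DESeq2 size factors over the 40 RNAs were used in place of library totals. With library totals, 8 of the 40 RNAs were lower in pof8Δ without overlap (20%).

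The mean was 8271 ± 624 CPM in pof8+ and 7364 ± 424 CPM in pof8Δ (SD, n = 3 libraries each). The log2 fold change of gpm1 was -0.17 (SE 0.089, 95% interval -0.36 to 0.021), and its adjusted p was 0.286 (edgeR, quasi-likelihood, Benjamini-Hochberg over 40 RNAs). It did not pass the test. A two-sided exact permutation test on log2 CPM gave p = 0.1, the smallest that 3 against 3 libraries allow. The interval leaves out a decrease of more than 0.36 on the log2 scale with this scaling. With a call defined by an adjusted p below 0.05 and a log2 fold change beyond 1 in either direction, edgeR called 1 of the 40 RNAs lower (2.5%) and 0 higher (0%), as did DESeq2. At an unadjusted p below 0.05, edgeR had 5 lower and 2 higher. Over the 40 RNAs the median log2 fold change was -0.074 with library totals and 0.029 with TMM factors, a shift of 0.10. Relative to this median, gpm1 stood at -0.093 and -0.10.

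**Figure D4:**
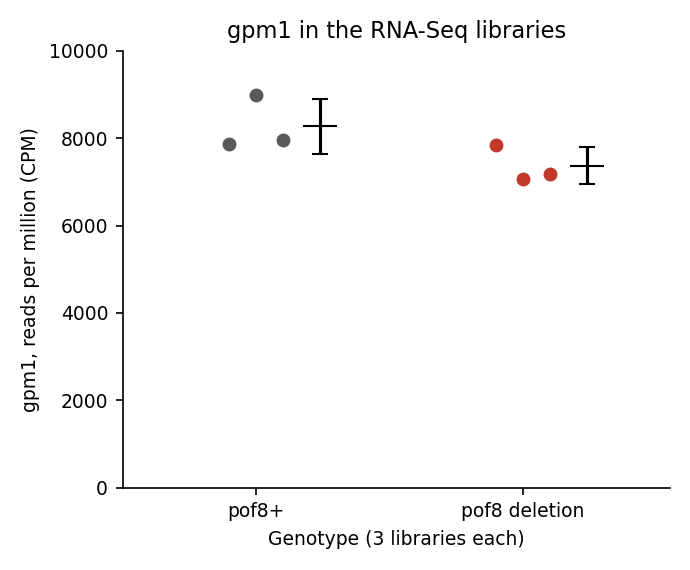
CPM of gpm1 (counts scaled to library totals) in 3 pof8+ and 3 pof8Δ libraries, 1 point a library, with the mean and SD beside each group. The pof8+ points lie at 7864 to 8989 CPM and the pof8Δ points at 7060 to 7848 CPM.

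The gpm1 message took 0.706% to 0.899% of the reads of a library, and its average RPKM over the 6 libraries, as computed by the authors, ranked 2 of the 40 RNAs. Counts of the other 8 members in the RNA-Seq libraries were not analyzed here, so how their levels stand in pof8Δ cells is not covered.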

How the data were processed

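The RIP-Seq reads (40 bp, single-end, unstranded) were aligned by the authors with STAR 2.5.2b to ASM294v2. The authors deposited a signal, the count of uniquely mapped reads of a gene on either strand over the library median, and the ratio of this signal between the Lsm8 IP and the control IP. Whole reads of both libraries were worked back from these columns. A column that marks genes of the IP was not used. For the RNA-Seq (ribo-depleted, stranded, 100 bp reads), the authors deposited raw counts of 40 of 44 listed RNAs and an average RPKM, from which library totals were worked back (whole lengths for 40 of 40 RNAs, within 0.0001 nt). Columns of the authors' edgeR 3.14.0 comparison (log2 fold change, likelihood ratio, p-values) were not used.

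Ratios carry exact 95% Clopper-Pearson intervals for counting error and no test. A minimum of 10 control reads was set for the genes that stand beside the members. Gene classes, exon lengths, introns and overlaps came from ASM294v3, which matched 6846 of 7014 genes. Gene limits can differ from those used for the counts: the worked-back length of gpm1 was 781 nt, against 791 nt of exon in ASM294v3. No coordinates or sequences were taken from it for the text. The RNA-Seq fit used edgeR 4.0.16 (quasi-likelihood) in R 4.3.3 on library totals, with the filter of 1 CPM in at least 3 libraries, which removed no RNA. DESeq2 1.42.0 served as an alternative. Each SE is the log2 fold change over the square root of F. The rest was done in Python 3.11.15 with pandas 2.3.3, SciPy 1.17.1, NumPy 2.4.6 and Matplotlib 3.10.9.

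The members and gene lists were chosen with earlier results of these data known. All 9 members are named. Of the lists, genes above a ratio of 2 or below 0.5, the extremes and the paralogues were to be named, along with the 5 genes most like gpm1. The genes of the comparison by depth, and hxk1, hxk2 and pgi1, were named after their values were seen. Alternatives covered scaling, thresholds, a count of 1 added to each library, overlapping genes, denominators, the RNA-Seq test, leaving out each library and a replicate block.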

Additional observations from a re-analysis of the deposited data

How the results depend on the processing

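Each scaling of the IP libraries multiplies all ratios by 1 factor, so it can move a gene across 1 but cannot change the order. With total reads, the log2 ratio was -1.22 for tpi1 and -0.51 for gpm1. With total reads without the 5 snRNA genes, it was 0.059 for tdh1, 0.16 for pyk1 and 0.059 for the median of the 9, against -0.24 in the main scaling. The median was -0.19 with medians over genes with reads, -0.18 with medians over coding genes and -1.67 with total reads. Without adh1, or without gpm1, which were added after seeing the data, it was -0.43. With total reads without snRNA genes, or with a ratio above 1.5, 1 member (gpm1) passed the rule instead of 0. The share of reads held by the members was 2.43% (Lsm8 IP) and 8.50% (control IP) of all genes, and 21.8% and 20.6% of coding genes that overlap no other gene, a class that leaves out gpm1 by annotation and keeps adh1, although its reads cannot be told from those of SPCC13B11.02c. The log2 fold change of gpm1 was below 0 in 12 of 12 fits (-0.22 to -0.070, adjusted p from edgeR or DESeq2 0.193 to 0.755), and -0.22 to -0.10 with each library left out. These fits reuse the same libraries and are not separate support. With library totals the groups did not overlap, so leaving out a library could not change the sign. The fit without the filter repeats the main fit, since the filter removed no RNA. With each library left out, RNAs called lower numbered 1 to 2 of 40, with 2 without pof8+ replicate 3 or pof8Δ replicate 3. Without the minimum fold, 4 were lower and 1 higher. Between libraries of the same replicate number, the correlations of deviations from the group mean were 0.34, -0.68 and 0.20. These values depend on each other, so they cannot decide whether replicate numbers pair the samples. With a replicate block gpm1 stood at -0.17 (adjusted p = 0.680 in edgeR). With the block, 1 RNA was called lower and 0 higher, as without it. The counting intervals of the 9 ratios are narrow, and variation between precipitations was not measured.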

Other observations

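Pyruvate that is not fermented enters the mitochondrion, where pyruvate dehydrogenase and the citrate cycle oxidize it. Of coding genes with at least 10 control reads, 38.3% lay above 1, 18.2% below 0.494 (eno101) and 89.1% below 1.89 (gpm1). Non-member coding genes had a median of 0.869 at 30 to under 100 control reads and 0.728 at 100 to under 300. Of 17 genes for pyruvate dehydrogenase and the citrate cycle, 7 had a ratio above 1, 2 above 2 and 6 below 0.5, with a median of 0.731. The highest were idh2, a subunit of isocitrate dehydrogenase, at 3.06 (95% interval 2.47 to 3.83, 754 Lsm8 reads and 95 control reads) and fum1, fumarase, at 2.17 (1.77 to 2.68). The other isocitrate dehydrogenase subunit, idh1, lay at 0.483 (0.353 to 0.663). The lowest were dld1, dihydrolipoamide dehydrogenase, at 0.369 (0.303 to 0.450) and pdb1, a subunit of pyruvate dehydrogenase, at 0.398. The remaining genes below 0.5 were mdh1 (0.464), pda1 (0.476) and sdh2 (0.492).

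Of 5 pentose phosphate genes, 3 lay above 1 (38.3% of coding genes with at least 10 control reads did), with a median of 1.07. The highest was zwf1, glucose-6-phosphate dehydrogenase, at 1.81 (1.54 to 2.14), and the lowest was tkt1 (SPBC2G5.05), transketolase, at 0.254 (0.236 to 0.273). Of 8 genes for gluconeogenesis, glycerol and trehalose, 2 lay above 1, beside the same 38.3%, with a median of 0.820. They ran from 0.396 for dak1, a dihydroxyacetone kinase gene, to 1.35 for gut2, the mitochondrial glycerol-3-phosphate dehydrogenase. No gene of these 3 lists passed the enrichment rule, which 0.532% of all genes passed. The rule takes at least 960 Lsm8 reads, and 1 of the 17, 3 of the 5 and 1 of the 8 genes reached them, so idh2 and fum1 could not have passed. All values are from 1 library on each side, without a test.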
